A study of Mus musculus with 6 samples.

Results

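The genes of axon guidance ligands and their receptors were compared between Kir2.1-OE and control mice in RNA of the cochlear sensory epithelium at postnatal day 9 (P9). They were chosen by name: every gene symbol that begins with Sema, Plxn, Epha, Ephb, Efna, Efnb, Robo or Slit (apart from the Slitrk genes), with Nrp1, Nrp2, Dcc, Ntn1 and Unc5b. This gave 64 of the 24411 genes in the files, of which 32 encode ligands, 31 encode receptors and 1, Plxna4os1, is an antisense RNA inside Plxna4. The rule reads gene symbols and no measured value. Kir2.1-OE mice carried 1 copy each of Otof rtTA, which places the doxycycline (DOX)-dependent activator rtTA under the Otof promoter, and of a tet-dependent transgene with Kir2.1, IRES and tau-lacZ. Controls were littermates with Otof rtTA alone, labelled WT, so both groups carried the activator. Both were on the C57BL/6N background, and for both groups DOX was given at 0.5 mg/ml through the water of pregnant and nursing mothers. Each of the 3 libraries per group came from 1 pool of 8 cochleae from 4 mice. Otof encodes otoferlin, and its promoter is active in hair cells and chiefly in inner hair cells (IHCs), whereas the pools also held supporting cells, nerve fibres, glia, vessels and other tissue, and a change in the number of cells of a type cannot be told apart here from a change in RNA per cell.

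Axon guidance molecules steer growing nerve fibres and also act in vessel growth and cell sorting. Semaphorins signal through plexins, and most class 3 semaphorins need a neuropilin as co-receptor. Ephrins are bound to the membrane and pair with Eph receptor tyrosine kinases on a neighbouring cell, Slits act through Robo receptors, and netrin-1 acts through Dcc and the Unc5 receptors. In the cochlea, the peripheral fibres of spiral ganglion neurons grow past mesenchyme and supporting cells to reach the hair cells, and several of these families are known to act along that path.

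The sequences directly upstream of the annotated start of 4 members show the kind of promoter these genes have. They are those of Efna5, the ephrin that rose, of Sema7a, of Plxnd1, the receptor with the highest log2 fold change, and of Epha2, the member whose window held a cAMP response element. Each run holds 250 bases from RefSeq on the GRCm38.p6 build, 5′ to 3′ on the strand of the gene, which is - for Efna5 and Plxnd1 and + for Sema7a and Epha2. The windows lie at chr17:62881318-62881567 for Efna5, chr9:57939862-57940111 for Sema7a, chr6:115995006-115995255 for Plxnd1 and chr4:141300971-141301220 for Epha2. Capitals mark matches, on either strand, to the GC box GGGCGG, the cAMP response element TGACGTCA, the RFX half-site GTTGCC or the SOX core CTTTGT.
Efna5: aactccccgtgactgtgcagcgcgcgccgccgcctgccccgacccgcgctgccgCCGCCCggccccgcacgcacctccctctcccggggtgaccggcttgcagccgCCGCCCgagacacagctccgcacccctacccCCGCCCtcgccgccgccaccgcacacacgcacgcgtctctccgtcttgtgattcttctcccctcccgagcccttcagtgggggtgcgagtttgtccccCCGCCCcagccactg
Sema7a: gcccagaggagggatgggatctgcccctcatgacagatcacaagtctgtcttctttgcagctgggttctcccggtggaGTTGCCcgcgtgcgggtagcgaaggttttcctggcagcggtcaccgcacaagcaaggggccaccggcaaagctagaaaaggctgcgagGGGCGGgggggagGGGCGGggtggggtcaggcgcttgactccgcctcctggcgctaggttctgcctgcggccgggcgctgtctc
Plxnd1: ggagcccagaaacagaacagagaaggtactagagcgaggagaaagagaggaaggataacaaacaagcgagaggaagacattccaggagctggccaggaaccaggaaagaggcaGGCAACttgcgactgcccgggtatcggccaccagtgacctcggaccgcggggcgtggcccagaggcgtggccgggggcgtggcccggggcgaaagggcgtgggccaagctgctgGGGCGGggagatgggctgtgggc
Epha2: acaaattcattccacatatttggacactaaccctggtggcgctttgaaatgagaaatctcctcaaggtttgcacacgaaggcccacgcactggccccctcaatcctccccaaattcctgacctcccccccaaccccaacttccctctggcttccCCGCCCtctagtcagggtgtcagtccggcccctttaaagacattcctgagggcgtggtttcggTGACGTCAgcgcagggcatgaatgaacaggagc

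RefSeq promoters were matched to 54 of the 63 members that encode a ligand or receptor, with 70 promoters in all. A GC box stood in 71.4% of these promoters, against 55.3% of the promoters of tested genes and 32.7% of all 32851 promoters in the table. The cAMP response element was found in 1.43% of the members' promoters, which is 1 promoter, in 2.46% of those of tested genes and in 1.55% of all promoters. Shares for the RFX half-site were 11.4%, 10.6% and 10.4%. The SOX core stood in 7 of the 70 promoters of members, in 12.8% of those of tested genes and in 16.5% of all promoters. The members upstream of which an RFX half-site was found were Epha5, Epha7, Plxnb1, Plxnd1, Sema4c, Sema6d and Sema7a. These matches describe letters in a short window, and binding was not measured.

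Salmon assigned between 35430940 and 41205047 reads to genes in each library. Kcnj2, which encodes Kir2.1, held 3612, 3813 and 2213 normalized counts (counts scaled to a common library size) in the Kir2.1-OE libraries, in the order of their replicate numbers, and 235.8, 228.1 and 226.0 in the controls, so each library followed its label. The column of control replicate 1 carries the number 4 in its file header, whereas the label gives 1. Among hair cell markers, Otof itself had a normalized count of 3787 ± 431 (SD, n = 3) with Kir2.1 overexpression and 2232 ± 421 (SD, n = 3) without, so hair cell RNA was present in both groups. The list of 10 hair cell markers summed to between 51568 and 57942 normalized counts in the Kir2.1-OE libraries and between 49522 and 54858 in the controls, ranges that overlapped. By the call defined below, 2 of the 10 rose and 1 fell, with a median log2 fold change of 0.01. Otof was among those that rose, at 0.76 (SE 0.138, adjusted p = 0.00174). With offsets for transcript length and GC content (described further on), 1 of the 10 rose and 0 fell, and Otof was at -0.05.

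Most axon guidance genes had higher counts in Kir2.1-OE than in control pools, with Slit3, Sema3g, Plxnd1 and Plxna2 among the largest changes. A gene was called where it changed more than 1.5-fold and its adjusted p-value in edgeR's quasi-likelihood test was under 0.05, and 62 of the 64 members passed the filter on low counts. Of these 62, 22 rose and 1, Efnb3, fell. The share that rose was 35.5%, whereas 15.5% of all 15303 tested genes rose and 5.08% fell. The median log2 fold change of the 62 tested members was 0.53, with a range from -0.62 to 1.44, while the median of all tested genes was 0.01. A positive value was seen in 55 members and a negative one in 7. In 48 members every Kir2.1-OE library exceeded every control (77.4%, against 31.7% of all tested genes) and in 3 every one was below (against 29.9% of all tested genes). For a single gene, the smallest p-value of an exact permutation test with 3 pools in each group is 0.10. When the change had to exceed 0.6 on the log2 scale (edgeR's glmTreat), 9 members rose and 0 fell, against 5.44% and 0.372% of all tested genes, and at an unadjusted p-value under 0.05 these counts were 19 and 0.

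The 2 members that did not pass the filter were barely present. Robo3, a Robo family member known for commissural axons, held between 0 and 4.0 normalized counts per library, and Plxna4os1 held between 4.0 and 8.2. Reads of an antisense RNA cannot be separated from those of Plxna4 without strand information, and no strand setting was given in the sources used here.

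**Figure D1:**
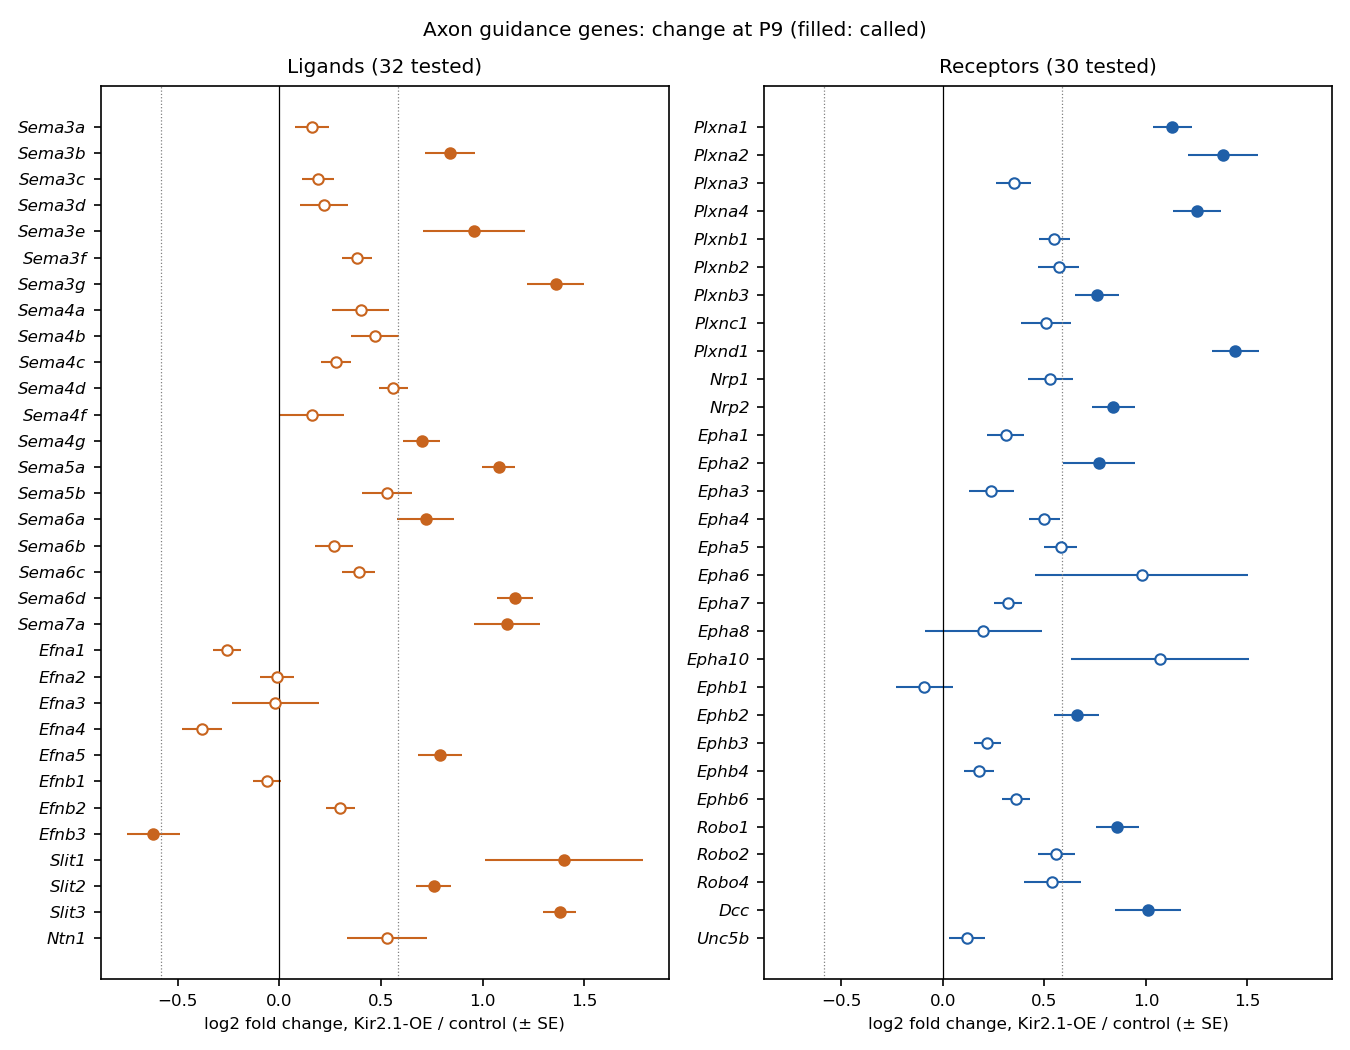
The x axes give the log2 fold change of Kir2.1-OE over control for each of the 32 ligands (left) and 30 receptors (right) tested; points are estimates from 3 pools per group, bars are standard errors, filled points are called, and dotted lines mark a 1.5-fold change. Ephrins sit around 0 with Efna5 above and Efnb3 below, while all 20 semaphorins, all 9 plexins and all 3 Slits lie to the right of 0.

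Among the ligands, 12 of 32 rose and 1 fell, with a median log2 fold change of 0.43. The semaphorins, secreted or membrane-bound cues that mostly repel, accounted for 8 of the 12. Every Kir2.1-OE library exceeded every control in 31.7% of all tested genes and in 18 of the 20 semaphorins. All 20 semaphorins had a positive log2 fold change, with a median of 0.50. Those that rose were Sema3b, Sema3e and Sema3g of the secreted class 3, Sema4g of class 4, Sema5a of class 5, Sema6a and Sema6d of class 6, and Sema7a, which is held on the membrane by a lipid anchor.

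Sema3g, a secreted semaphorin known from vessels (mm10 chromosome 14, 31217860 to 31230352), held 302.8, 285.8 and 314.2 normalized counts in Kir2.1-OE pools and 107.4, 129.9 and 113.0 in control pools, given here and below by replicate number from 1 to 3. The Kir2.1-OE pools were close together and far above all controls. Its log2 fold change was 1.36 (SE 0.141, adjusted p = 0.000169), the highest of the semaphorins. Sema6d, a transmembrane semaphorin (chromosome 2, 124089969 to 124667770), held 2865, 2458 and 2765 normalized counts against 1100, 1297 and 1217 in controls. The groups did not overlap, and its log2 fold change was 1.16 (SE 0.0884, adjusted p = 0.00012). Sema5a, a transmembrane semaphorin with thrombospondin repeats (chromosome 15, 32244810 to 32696341), held 5989, 5678 and 6154 against 2530, 3011 and 2886, a log2 fold change of 1.08 (SE 0.0817, adjusted p = 0.00012). Its counts were among the highest of the ligands in both groups.

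Sema7a (chromosome 9, 57940112 to 57962865), which promotes axon growth in other tissues, held 2909, 2393 and 3826 normalized counts in Kir2.1-OE pools and 1174, 1515 and 1504 in controls. Kir2.1-OE replicate 3 stood above the other pools, and the log2 fold change was 1.12 (SE 0.164, adjusted p = 0.000624). Sema3e (chromosome 5, 14025276 to 14256689), the secreted semaphorin that binds plexin D1 without a neuropilin, held 915.6, 690.5 and 1496 against 462.5, 642.4 and 488.6. The lowest Kir2.1-OE pool was just above the highest control, and replicate 3 was again the highest. Its log2 fold change was 0.96 (SE 0.251, adjusted p = 0.0109), and without Kir2.1-OE replicate 3 it was 0.58 and was no longer called. The spiral ganglion neuron markers were also highest in that library, with a sum of 77992 normalized counts against 53975 and 40972 in the other Kir2.1-OE pools and 27030 to 35787 in the controls. Whether nerve tissue in the pools had a part in these values was not tested.

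Sema3b (chromosome 9, 107597674 to 107609229), a neuropilin-dependent semaphorin, had the highest level per kb of any ligand over the 6 libraries. It held 5808, 5092 and 6418 normalized counts in Kir2.1-OE pools and 2707, 3707 and 3244 in controls. All Kir2.1-OE pools were above all controls, with a log2 fold change of 0.84 (SE 0.123, adjusted p = 0.000613). Sema6a and Sema4g had log2 fold changes of 0.72 and 0.70. Sema6a was not called without control replicate 3, where its log2 fold change was 0.57. With offsets for the trend of counts with transcript length and GC content (described with that trend further on), Sema6a was at 0.20 (adjusted p = 0.233) and Sema4g at 0.27 (adjusted p = 0.0328), and neither was called. The 12 semaphorins that were not called had log2 fold changes between 0.16 and 0.56, and Sema4d, which signals through plexin B1, stood nearest to the fold threshold with 0.56 (SE 0.0719). Sema3a, the best-known repellent of the family, had 0.16 (SE 0.0837, adjusted p = 0.128).

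All 3 Slits rose. Slit3 (chromosome 11, 35121224 to 35708507) held 2255, 2462 and 2138 normalized counts in Kir2.1-OE pools and 882.9, 918.6 and 826.5 in controls. The spread within each group was small next to the gap between them, and the log2 fold change was 1.38 (SE 0.0816, adjusted p = 8.6e-05). Slit2 had a log2 fold change of 0.76 (SE 0.0861). Slit1, which had the highest value of all ligands at 1.40 (SE 0.389), rested on 19.0 to 39.1 normalized counts in Kir2.1-OE pools and 9.0 to 13.2 in controls. Slit1 was not called without Kir2.1-OE replicate 3 (1.10) or when at least 10 counts were required in every library, and the length and GC offsets put it at 0.74 (SE 0.401, adjusted p = 0.177). Slit2 was at 0.26 with the offsets and was also not called. Ntn1, the netrin, overlapped between the groups, with 633.6 to 781.1 normalized counts against 378.2 to 686.0 and a log2 fold change of 0.53 (SE 0.197).

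The ephrins were spread around 0. Of the 8 ephrins, Efna5 rose, Efnb3 fell, and 6 had a negative log2 fold change, with a median of -0.04. Their summed counts per kb, adding every ephrin, lay between 3758.4 and 3831.8 in the Kir2.1-OE libraries and between 3816.7 and 3924.7 in the controls. Without the ephrins, 11 of 24 ligands rose, with a median log2 fold change of 0.54. Efna5 (chromosome 17, 62604184 to 62881317), a lipid-anchored repellent in topographic maps, held 894.0, 771.5 and 827.2 normalized counts in Kir2.1-OE pools and 465.5, 544.3 and 435.7 in controls. Its groups were well apart, with a log2 fold change of 0.79 (SE 0.109, adjusted p = 0.000499). Efnb3 (chromosome 11, 69554092 to 69560205), a transmembrane ephrin known as a midline barrier for corticospinal axons, held 448.5, 510.6 and 574.4 against 916.0, 736.9 and 701.3. All Kir2.1-OE pools were below all controls, and the log2 fold change was -0.62 (SE 0.131, adjusted p = 0.00378). The change was near the fold threshold, and Efnb3 was not called without Kir2.1-OE replicate 1 (-0.54) or without control replicate 1 (-0.49). Efna1 and Efna4 also lay below the controls in all Kir2.1-OE pools, with log2 fold changes of -0.26 and -0.38, neither past the fold threshold. Efnb2, the most abundant ephrin by count, had 0.30 (SE 0.0713).

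Among the receptors, 10 of the 30 tested rose and 0 fell under edgeR's test, with a median log2 fold change of 0.55. DESeq2's Wald test gave 10 higher and 0 lower, and 0 receptors were lower at an unadjusted edgeR p-value under 0.05. Without the fold threshold 23 of the 30 receptors had an adjusted p-value under 0.05, as did 7774 of all 15303 tested genes. The only negative value among the receptors was that of Ephb1, at -0.09 (SE 0.142). Plexins, the signalling receptors for semaphorins, contributed 5 of the 10. All 9 plexins had every Kir2.1-OE pool above every control, as did 31.7% of all tested genes. The median log2 fold change of the 9 plexins was 0.76.

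Plxnd1 (chromosome 6, 115954811 to 115995005), known for vessel patterning, held 6180, 5496 and 4754 normalized counts in Kir2.1-OE pools and 1804, 2282 and 1970 in controls. The lowest Kir2.1-OE pool was above the highest control by more than the range of either group, and its log2 fold change of 1.44 (SE 0.116, adjusted p = 0.00012) was the highest of all members. Plxna2 (chromosome 1, 194618218 to 194816869) held 1040, 1023 and 650.6 against 320.0, 362.5 and 359.3. Kir2.1-OE replicate 3 was lower than the other Kir2.1-OE pools but above all controls, and the log2 fold change was 1.38 (SE 0.172, adjusted p = 0.000299). Plxna4 (chromosome 6, 32144268 to 32588192) held 1347, 1184 and 1090 against 530.7, 559.7 and 434.6, a log2 fold change of 1.25 (SE 0.119, adjusted p = 0.000148). Plxna1 (chromosome 6, 89316314 to 89362620) held 6096, 5470 and 5420 against 2687, 2809 and 2241, a log2 fold change of 1.13 (SE 0.0960, adjusted p = 0.000129). The A plexins take part in signalling by class 3 and class 6 semaphorins, and the fourth of them, Plxna3, had a log2 fold change of 0.35 (SE 0.0867).

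Of the B plexins, Plxnb3 rose, with a log2 fold change of 0.76 (SE 0.107). Plxnb2 (chromosome 15, 89155549 to 89180788), a receptor for class 4 semaphorins, had the highest level per kb of any receptor. It held 12380, 12940 and 10304 normalized counts against 7295, 8662 and 8059. The groups did not overlap, but the log2 fold change of 0.57 (SE 0.102, adjusted p = 0.00169) was just short of the fold threshold, as was that of Plxnb1 at 0.55 (SE 0.0778).

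Of the neuropilins, Nrp2 (chromosome 1, 62703285 to 62818695) rose, with 6659, 6812 and 5950 normalized counts in Kir2.1-OE pools and 3146, 4154 and 3565 in controls. Its log2 fold change was 0.84 (SE 0.105, adjusted p = 0.000317). Nrp1 (chromosome 8, 128358604 to 128503363), which also serves as a co-receptor for vascular endothelial growth factor, held 4312, 4439 and 4354 against 2474, 3405 and 3194. Its Kir2.1-OE pools agreed closely and lay above all controls, with a log2 fold change of 0.53 (SE 0.109, adjusted p = 0.00323), short of the fold threshold.

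Of the 14 Eph receptors tested, Epha2 and Ephb2 rose, and the 14 had a median of 0.34 on the log2 scale. The share of Eph receptors that rose was 14.3%, beside 15.5% of all tested genes. Once the offsets were applied, 0 Eph receptors were called in either direction, whereas 6.85% of all tested genes rose. Of the 16 other receptors tested, 8 rose, with a median of 0.66; the difference between these receptor groups was not tested. Epha2 (chromosome 4, 141301240 to 141329384), a receptor for A ephrins found mainly on epithelia, held 255.6, 238.8 and 217.9 normalized counts in Kir2.1-OE pools and 133.4, 169.9 and 114.0 in controls. The groups were apart, with a log2 fold change of 0.77 (SE 0.176, adjusted p = 0.00559). Ephb2, a receptor for B ephrins, had 0.66 (SE 0.111), and was not called with upper quartile scaling or without control replicate 3. With the length and GC offsets Ephb2 turned to -0.24 (SE 0.0817, adjusted p = 0.0491), short of the fold threshold. Epha4, which is known to act on spiral ganglion axons, had 0.50 (SE 0.0759), and Epha7, whose counts were the highest of the EphA receptors, had 0.32 (SE 0.0682). Values of 1.07 for Epha10 and 0.98 for Epha6 rested on at most 66.6 normalized counts in any library, had standard errors of 0.439 and 0.524, and were not called.

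Robo1 (chromosome 16, 72308306 to 73046095), a Slit receptor, held 4730, 4467 and 4035 normalized counts in Kir2.1-OE pools and 2549, 2666 and 2050 in controls, without overlap. Its log2 fold change was 0.86 (SE 0.106, adjusted p = 0.000281). Robo2 and Robo4, the latter known from vessels, had 0.56 (SE 0.0898) and 0.54 (SE 0.139). Dcc, the netrin receptor of attraction, was scarce but higher in every Kir2.1-OE pool, with 213.5, 255.8 and 230.6 against 119.4, 129.9 and 98.7. Its log2 fold change was 1.01 (SE 0.163, adjusted p = 0.00103). Unc5b, a netrin receptor of repulsion, overlapped between the groups, with 3751 to 4465 normalized counts against 3621 to 4200 and a log2 fold change of 0.12 (SE 0.0895).

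**Figure D2:**
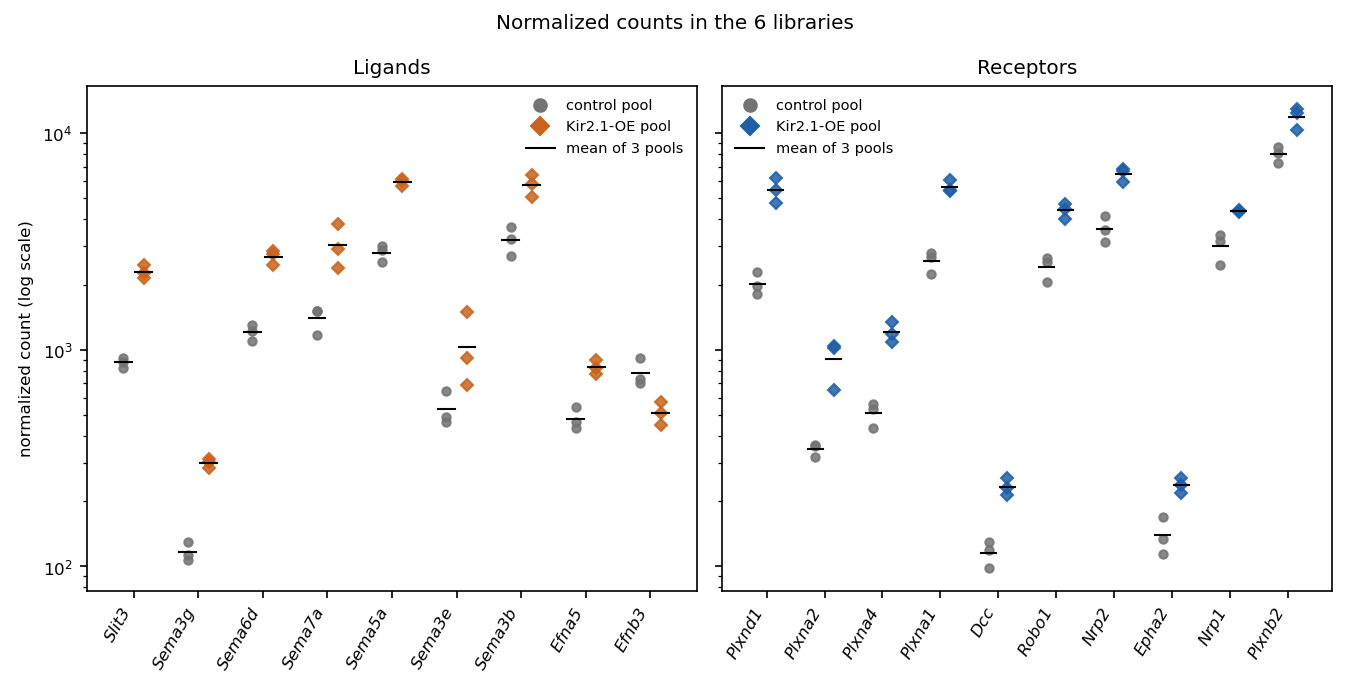
Normalized counts on a log axis in each of the 3 control pools (circles) and 3 Kir2.1-OE pools (diamonds) for the ligands (left) and receptors (right) whose values are given library by library; black bars are means of 3 pools. In every gene shown the groups do not overlap, and Efnb3 is the one gene in which the controls are above.

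Ligands and receptors were then set side by side. The share that rose was 37.5% of ligands and 33.3% of receptors. Once offsets for length and GC content were applied, 18.8% of ligands rose (6 of 32) and 6.67% of receptors (2 of 30). Of all tested genes, 6.85% rose under those offsets. The median log2 fold changes were then 0.10 for ligands and 0.13 for receptors. Whether the shares of ligands and receptors differ was not tested. Normalized counts summed over all ligands were 57544, 55062 and 57944 in the Kir2.1-OE libraries and 37426, 41422 and 38719 in the controls. Over all receptors the sums were 81998, 81366 and 73600 against 51773, 56003 and 51633. Both sums were higher in every Kir2.1-OE pool than in any control. The ratio of receptor to ligand counts was 1.425, 1.478 and 1.270 in Kir2.1-OE pools and 1.383, 1.352 and 1.334 in controls, so it overlapped between the groups. The same ratio per kb of transcript was 1.027, 1.068 and 0.928 against 0.951, 0.951 and 0.931, and also overlapped. Within families, semaphorin counts summed to 37078 to 40503 in Kir2.1-OE pools and 23513 to 26561 in controls, and plexin counts to 28395 to 33642 against 17325 to 19050. Eph receptors summed to 25115 to 26440 against 20612 to 21544, and ephrins to 11740 to 12011 against 11014 to 11467.

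Levels were compared between genes as normalized counts per kb of the longest annotated transcript. The highest ligands in controls were Efna1, with 1066 ± 41.1 (SD, n = 3), Sema3b, with 938 ± 146, Efnb2, with 919 ± 47.4, and Sema3f, with 795 ± 42.8. Sema3b and Efnb2 did not differ beyond their spread, and Sema3b, from 788 to 1080 per kb, overlapped each of its neighbours. In Kir2.1-OE pools the order was different, with Sema3b at 1682 ± 193 per kb, Efnb2 at 1134 ± 49.7, Sema3f at 1031 ± 58.2, Sema7a at 923 ± 220 and Efna1 at 891 ± 24.6. Sema7a and Efna1 were not apart there beyond their spread. The lowest ligands in controls were Slit1, Sema3g and Efna3. Among receptors, Plxnb2 was first in both groups, with 1232 ± 105 per kb in controls and 1828 ± 214 in Kir2.1-OE pools. Ephb4 (1042 ± 62.2), Nrp1 (830 ± 134) and Ephb6 (716 ± 6.51) followed in controls, and Nrp1 and Ephb6 overlapped. Plxnd1 stood at 292 ± 35.1 per kb in controls and at 793 ± 103 in Kir2.1-OE pools, where it was above Epha7 (733 ± 23.3) in the order of means. Dcc, at 11.2 ± 1.54 and 22.6 ± 2.06 per kb, was among the lowest in both groups.

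For several pairs known to bind each other, both sides rose without the length and GC offsets. With the offsets, Sema3b and the neuropilin Nrp1 were both called, and in no other pair named here were both sides called. Sema3e and its receptor Plxnd1 had log2 fold changes of 0.96 and 1.44. Sema5a and Plxnb3 had 1.08 and 0.76, Sema6d and Plxna1 had 1.16 and 1.13, and Sema6a had 0.72 beside 1.38 for Plxna2 and 1.25 for Plxna4. Sema3g and Nrp2 had 1.36 and 0.84. The pair of Slit3 and Robo1 had 1.38 and 0.86. Efna5 and Epha2, a receptor for A ephrins, had 0.79 and 0.77. With the offsets these values were 0.67 and 0.58 for Sema3e and Plxnd1, 0.55 and 0.08 for Sema5a and Plxnb3, and 0.67 and 0.23 for Sema6d and Plxna1. Sema6a was at 0.20 beside Plxna2 at 0.67 and Plxna4 at 0.44, Sema3g at 0.97 beside Nrp2 at 0.25, and Slit3 at 0.85 beside Robo1 at 0.25. Efna5 was at 0.78 beside Epha2 at 0.46, where Epha2 was not called. The neuropilin-dependent Sema3b had 0.84 without the offsets, beside Nrp2 at 0.84 and Nrp1 at 0.53. With the offsets Sema3b and Nrp1 were both at 0.63 and both called, and Nrp2 was at 0.25. These calls depended on single libraries. With the offsets, neither Sema3b (0.53) nor Nrp1 was called without control replicate 1. Without Kir2.1-OE replicate 3, Sema3b was at 0.54 with the offsets and was not called. In other pairs a single side was called without the offsets. Sema7a rose by 1.12 beside Plxnc1 at 0.51, Efna5 by 0.79 beside Epha4 at 0.50 and Epha7 at 0.32, and Dcc by 1.01 beside Ntn1 at 0.53. Efnb3 fell by 0.62 while Ephb2 rose by 0.66 and Ephb1 and Ephb3 were at -0.09 and 0.22. With the length and GC offsets Efnb3 was at -0.81, and Ephb1, Ephb2 and Ephb3 were at -0.40, -0.24 and -0.23. None of these 3 receptors was called with the offsets. For Sema4d and Plxnb1 neither side was called, at 0.56 and 0.55. The cells that hold each side of a pair were not resolved in these pools.

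Longer transcripts had higher log2 fold changes across all genes, and the members are long. The median of their longest annotated transcripts was 5024 nt, 4511 nt for ligands and 6412 nt for receptors, against 3380 nt for all tested genes. Spearman's rho between this length and the log2 fold change was 0.557 over the 15192 tested genes with a length and 0.499 over the 62 members, a description across genes, which share the same 6 libraries and are not replicates. Among transcripts of 8000 nt and over, 63.9% of all tested genes rose, as did 77.8% of the 9 members, with medians of 0.81 and 1.01. From 5000 to 8000 nt the shares were 34.9% of all genes and 40.9% of 22 members, with medians of 0.42 and 0.55. From 2500 to 5000 nt they were 10.8% and 22.2% of 27 members, with medians of 0.03 and 0.40. Under 2500 nt, 2.69% of all genes and 0 of the 4 members rose (edgeR's quasi-likelihood test, with 0 also by DESeq2's Wald test and at an unadjusted p-value under 0.05), with medians of -0.28 and -0.14. These 4 were Efna1, Efna2, Efna3 and Efna4. In each of these 4 bands the members' median was above that of all tested genes.

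When each gene and library was given an offset for the trend of counts with transcript length and GC content, 8 members were higher and 1 was lower, against 6.85% and 3.2% of all tested genes. The members' share was 12.9%, and their median log2 fold change was 0.12, against -0.03 for all genes. The offsets left part of the trend with length. Spearman's rho with length was then 0.122 over all tested genes with a length and 0.15 over the members. At 8000 nt and over, 186 of all 884 tested genes were still higher, with a median of 0.24, as was 1 of the 9 members. These shares are therefore not free of length. Among ligands 6 rose and 1 fell, with a median of 0.10, and among receptors 2 rose, with a median of 0.13. The ligands were Sema3g (0.97), Sema7a (0.90), Slit3 (0.85), Efna5 (0.78), Sema6d (0.67), Sema3b (0.63) and, lower, Efnb3 (-0.81). The receptors were Plxna2 (0.67) and Nrp1 (0.63), the latter not called without the offsets. Sema3g, Sema7a, Slit3, Efna5, Sema6d and Efnb3 were called with the offsets whichever library was left out. Plxnd1 was at 0.58 (SE 0.0903), Sema5a at 0.55 (SE 0.0834) and Plxna4 at 0.44 (SE 0.0902) with the offsets, each with an adjusted p-value under 0.05 and short of the fold threshold. Plxna1, Robo1 and Nrp2 were at 0.23, 0.25 and 0.25. The sign turned for 14 members, among them Plxnb2 (-0.18), Plxnb1 (-0.35), Plxna3 (-0.39) and Ephb2 (-0.24). Unc5b had -0.57 (SE 0.0861) with the offsets, just short of a call as lower. Whether the trend with length came from the tissue or from the RNA and the libraries cannot be told apart with these files.

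**Figure D3:**
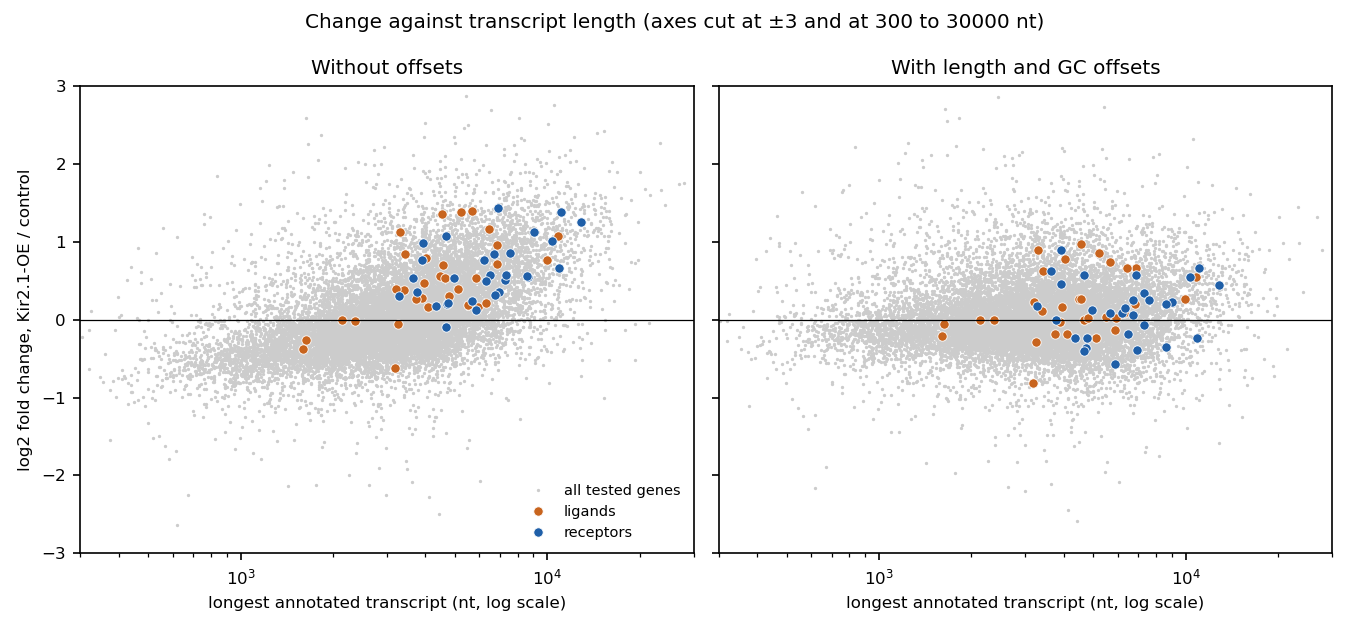
Log2 fold change against the length of the longest annotated transcript (log axis) for all tested genes (grey), ligands (orange) and receptors (blue), without offsets (left) and with the length and GC offsets (right). On the left the members follow the rising cloud, with a rho of 0.499; on the right their median is 0.12 and Sema3g, Sema7a and Slit3 stay near the top while Efnb3 lies lowest.

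**Figure D4:**
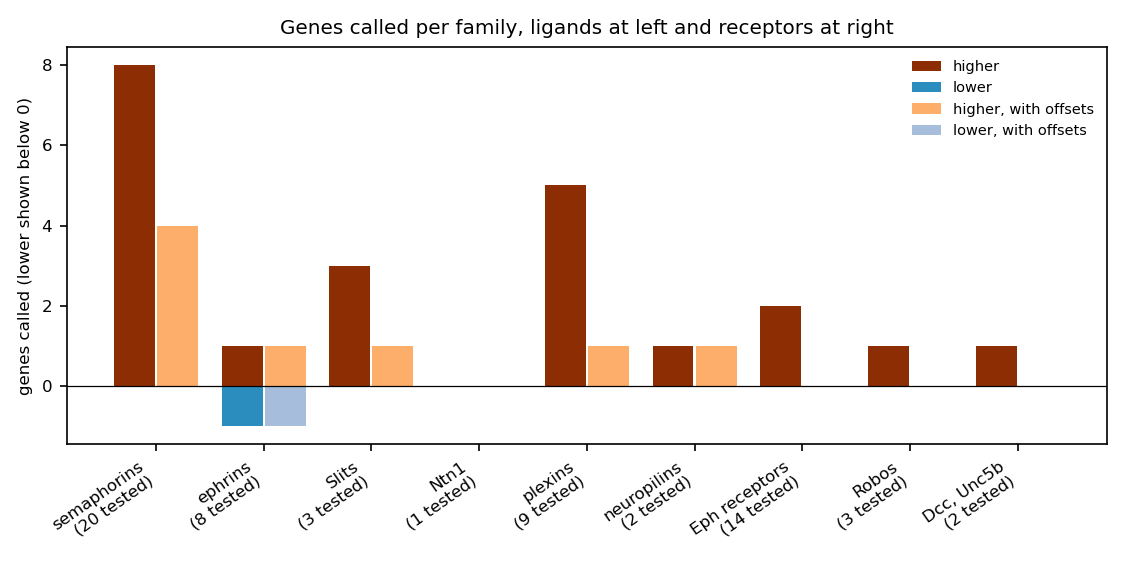
Bars count the genes called higher (above 0) and lower (below 0) in each family, without offsets (dark) and with the length and GC offsets (light); the number tested stands under each name. With the offsets, semaphorins fall from 8 to 4, Slits from 3 to 1 and plexins from 5 to 1, while the ephrins keep 1 in each direction.

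Markers of other cell types in the dissected tissue moved as well. For comparison, 15.5% of all tested genes rose and 5.08% fell, and with the offsets 6.85% and 3.2%. Of 12 spiral ganglion neuron markers, 7 rose and 0 fell, with a median log2 fold change of 0.89, and 7 rose with the offsets. Tubb3, a neuronal tubulin, was not called (0.38, SE 0.240). Of 9 Schwann and satellite glia markers, 3 rose and 0 fell, with a median of 0.56. Of 8 blood vessel markers, 6 rose and 0 fell, with a median of 0.65 and sums of 14534 to 15241 normalized counts in Kir2.1-OE pools against 10830 to 12545 in controls. Of 7 cartilage and bone markers, 2 rose and 0 fell, with sums of 288231 to 307788 against 135737 to 255684. Mesenchyme and fibrocyte markers (2 of 8 rose, 1 fell) had sums of 384420 to 441894 against 339024 to 415655, which overlapped. Supporting cell and greater epithelial ridge markers (2 of 10 rose, 3 fell) had lower sums, 215544 to 233566 against 269825 to 386324. Most of these sums was Tectb alone, with 140250 ± 10499 (SD, n = 3) normalized counts in Kir2.1-OE pools and 226519 ± 51592 in controls. The sum of 386324 was that of control replicate 1, and the other controls had 302106 and 269825. The median log2 fold change of this list was -0.41, and -0.16 with the offsets. At an unadjusted edgeR p-value under 0.05, 3 of its 10 markers were higher and 6 were lower. Whether the list shifted as a whole was not tested. Macrophage markers had 0 of 6 called in either direction by edgeR and by DESeq2, with 2 higher and 1 lower at an unadjusted p-value under 0.05, with sums of 6314 to 6746 against 5671 to 5941. Where edgeR called 0 lower, DESeq2's Wald test also called 0, and at an unadjusted edgeR p-value under 0.05 there was 1 lower blood vessel marker and 1 lower cartilage and bone marker, with 0 among the neuron and glia markers. With the offsets 4 glia, 4 blood vessel, 1 cartilage and bone and 1 mesenchyme and fibrocyte marker rose. Of the supporting cell and greater epithelial ridge markers 2 rose and 3 fell with the offsets. No marker in these lists was under 3 normalized counts in all libraries. The part of these cell types in the values of the axon guidance genes was not tested.

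Other genes of the same pathways were read from a pair of further lists. Their counts stand beside the 15.5% of all tested genes that rose, or 6.85% with the offsets. Of 14 other axon guidance ligands and receptors, 7 rose and 0 fell, with a median log2 fold change of 0.63. The highest were Dscam (1.90, SE 0.415), a homophilic adhesion receptor, and the netrin receptors Unc5d (1.32, SE 0.229) and Unc5a (1.05, SE 0.335). The lowest of the 7 were Ntng1 (0.97), Ntng2 (0.82) and Draxin (0.70), the latter a secreted repellent. With the offsets 3 of the 14 rose and 1 fell. Of 39 intracellular effectors of these receptors, 17 rose and 0 fell, with a median of 0.47. The highest were Mical3 (1.69, SE 0.165), an actin-oxidizing enzyme of the family that acts downstream of plexins, and the guanine nucleotide exchange factors Trio (1.51, SE 0.109) and Kalrn (1.51, SE 0.185). The lowest of those called were Srgap2 (0.72), Vav2 (0.68) and Abl1 (0.68). With the offsets 7 of the 39 effectors rose, and their median was 0.11. DESeq2's Wald test also called 0 lower in both lists, and at an unadjusted edgeR p-value under 0.05, 5 effectors and 0 of the other ligands and receptors were lower.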

How the data were processed

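RNA of cochlear sensory epithelium was measured in 3 Kir2.1-OE and 3 control pools, as poly(A) RNA in paired reads of 150 bp. The authors mapped reads to mm10 with the nf-core RNA pipeline, and the deposited values are expected counts per gene from Salmon, neither divided by length nor scaled; tool versions and the annotation are not given in the sources used here. They were rounded (6.95% were not whole) and fitted for all genes in edgeR 4.0.16 (R 4.3.3): TMM, with factors from 0.984 to 1.01, filterByExpr and the quasi-likelihood test, with p-values adjusted by Benjamini-Hochberg over 15303 genes. Every adjusted p-value in the text without another name is from this test. Fold changes are on the log2 scale. Pools are labelled as separate, and no pair within a group was as alike as sampling noise (chi-square per degree of freedom 15.7 to 31.1). Depth was 35430940 to 41205047 assigned reads, so that 0 counts allow up to 8.47e-06% of the smallest library (3 counts, counting error only). Lengths and GC content came from the longest GENCODE vM21 transcript of each gene, with 23376 genes matched by symbol and 650 by an older symbol. Reads were not followed to single transcripts.

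Offsets were loess trends (span 0.4) on length and GC content, fitted to the log2 ratio of a library to the mean of all. The other alternatives were DESeq2 size factors, upper quartile scaling, library size alone, no filter, at least 10 counts in every library, a replicate block, DESeq2 1.42.0, no fold threshold and each library left out. The offsets with each library left out were chosen after seeing the data. Values in every library are given for the called ligands and receptors with the 8 largest changes and a mean of at least 50 normalized counts, for members called lower or with the offsets, and for the ligand and receptor with the highest level per kb; other lists give their 3 highest and 3 lowest called genes. Pairs of ligands and receptors, and the members set beside a result, were picked with their values known. The members and lists were chosen with earlier results of these data known. On simulated data the model called 193 of 200 changed genes and 5 unchanged genes of 15205 run. The simulated counts had no trend with length or GC content, so this does not cover calls that follow that trend. Near-identical family members can share reads. Summed counts of the glia marker list are not reported here.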

Additional observations from a re-analysis of the deposited data

How the results depend on the processing

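Of the 23 called members, DESeq2 size factors, library size alone, no filter, the replicate block and DESeq2's Wald test kept all 23, upper quartile scaling lost Ephb2 and a minimum of 10 counts lost Slit1. With each library left out, 18 of the 23 were called every time. With the length and GC offsets, whether or not the replicate block was added, 9 members were called, 8 of them higher, with 7 ligands (6 higher) and 2 receptors. Under edgeR's glmTreat with the offsets, alone and with the block, 0 members passed (5 of 62 at an unadjusted p-value under 0.05 with the offsets alone; no other tool was run for this threshold), where 9 had passed without them. With the offsets alone 14 of all 15303 tested genes passed, and 881 did at an unadjusted p-value under 0.05, so the 0 says nothing particular about the members. The median log2 fold change with the offsets was 0.10 for ligands (0.11 with the block) and 0.13 for receptors (0.14 with the block). Leaving out each library under the offsets gave 8 to 14 members called, 6 to 12 higher, 6 to 8 ligands called, 5 to 7 ligands higher, 2 to 6 receptors called, and 0 past 0.6 by glmTreat each time, with medians of 0.06 to 0.17 for ligands and 0.12 to 0.17 for receptors; the highest counts, 14 members and 6 receptors, were those without control replicate 2, beside 11 members without control replicate 3 and 3 receptors without control replicate 3 or Kir2.1-OE replicate 3. The ligand median under the offsets was 0.09 without control replicate 1; leaving out Kir2.1-OE replicate 2 put it at 0.07 and the receptor median at 0.15. Plxnb2 turned to -0.18 with the offsets (-0.18 with the block, -0.26 to -0.11 with libraries left out, and -0.13 without control replicate 3) and Ephb2 to -0.24 (-0.23 with the block, -0.30 to -0.17). Without the fold threshold 48 members were called, 45 higher, with 25 ligands (22 higher) and 23 receptors. Of all 15303 tested genes, 7774 were called in this way, in either direction. The receptor median was 0.46 with upper quartile scaling, which moved the median of all genes by -0.089, and between 0.53 and 0.61 with libraries left out. The cause of these shifts was not tested. Same-numbered pools had correlations of -0.106, -0.232 and -0.213 between their deviations from group means, and differently numbered pools had 0.0061 to 0.2. The header number of control replicate 1 differs from its label, so these values cannot show whether pools shared litters or batches. The replicate block kept all 23 calls.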
